A study of Mus musculus with 5 samples.

Results

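The genes described here encode the core of the mitochondrial apoptosis pathway, namely the BCL2 family members Bcl2, Bcl2l1, Mcl1, Bax, Bak1 and Bcl2l11 and the caspase-activating proteins and their inhibitor, Casp9, Apaf1 and Xiap. The members were taken by name, as the rows of the count tables that carry these symbols, and all 9 were found among the 23284 genes of each table. All 9 also passed the filter on low counts, so that every member was tested. The question the comparison addressed was whether survival genes differ in neural tubes that lack the erythropoietin receptor.

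Neural tubes were dissected from mouse embryos of matings between EpoR heterozygous mice, and polyA RNA was sequenced from 5 samples. The labels give 2 samples with the genotype EpoR -/- (EpoR-null), 2 with EpoR +/+ (wild type) and 1 with EpoR +/- (heterozygote), and the last 2 groups together were the 3 littermate controls. The deletion is in the germline, so that blood-forming and other cells of an EpoR-null embryo lack the receptor as well as neural cells. Embryos were at E8.5 according to the labels, whereas the methods of the study give a later stage by part of a day.

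In the mitochondrial pathway, BAX and BAK assemble into pores in the outer membrane of the mitochondrion and let cytochrome c escape. BCL2, BCL-XL (the main product of Bcl2l1) and MCL1 hold BAX and BAK in check, and BH3-only proteins such as BIM (Bcl2l11) relieve that restraint. Cytochrome c binds APAF1, the resulting apoptosome activates caspase-9, and XIAP blocks caspase-9 and caspases downstream of it. Neural progenitors depend on this pathway, and mice without Casp9 or Apaf1 are known for an overgrown embryonic brain. In erythroid progenitors, signaling from the erythropoietin receptor through STAT5 is known to sustain transcription of Bcl2l1.

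No member passed the threshold of FDR < 0.05 in EpoR-null neural tubes. Relative to controls, Xiap and Apaf1 had the lowest levels, with fitted differences of -31.6% and -29.2%, and Bax had the highest, with 41.1%. The other 6 members differed by between -20.3% (Bcl2) and 15.1% (Bak1). Of all 12703 genes tested, 7.31% were called at that threshold by the exact test of edgeR, 5.49% with lower and 1.81% with higher levels in the EpoR-null group, against 0 of the 9 members. DESeq2 called 1 member, Xiap, beside 16.6% of the 10485 genes to which it gave an adjusted p. The quasi-likelihood F-test of edgeR called 0 members and 0 of all genes. With a block for the replicate number, that test called 0 members beside 695 of all genes. At an unadjusted p below 0.05, 3 of 9 members were counted (Xiap and Apaf1 lower, Bax higher) beside 19.8% of all genes. Both EpoR-null libraries lay below all controls for 3 members (Bcl2, Apaf1 and Xiap) beside 22.1% of all genes. Both lay above all controls for 4 members (Mcl1, Bax, Bak1 and Casp9) beside 21.2% of all genes. With 9 genes that share the same 5 libraries, whether these counts differ from the background was not tested. The median log2 fold change of the 9 members was 0.09, and that of all genes tested was 0.06. In bulk tissue, fewer cells of a type and less RNA per cell cannot be told apart.

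**Figure D1:**
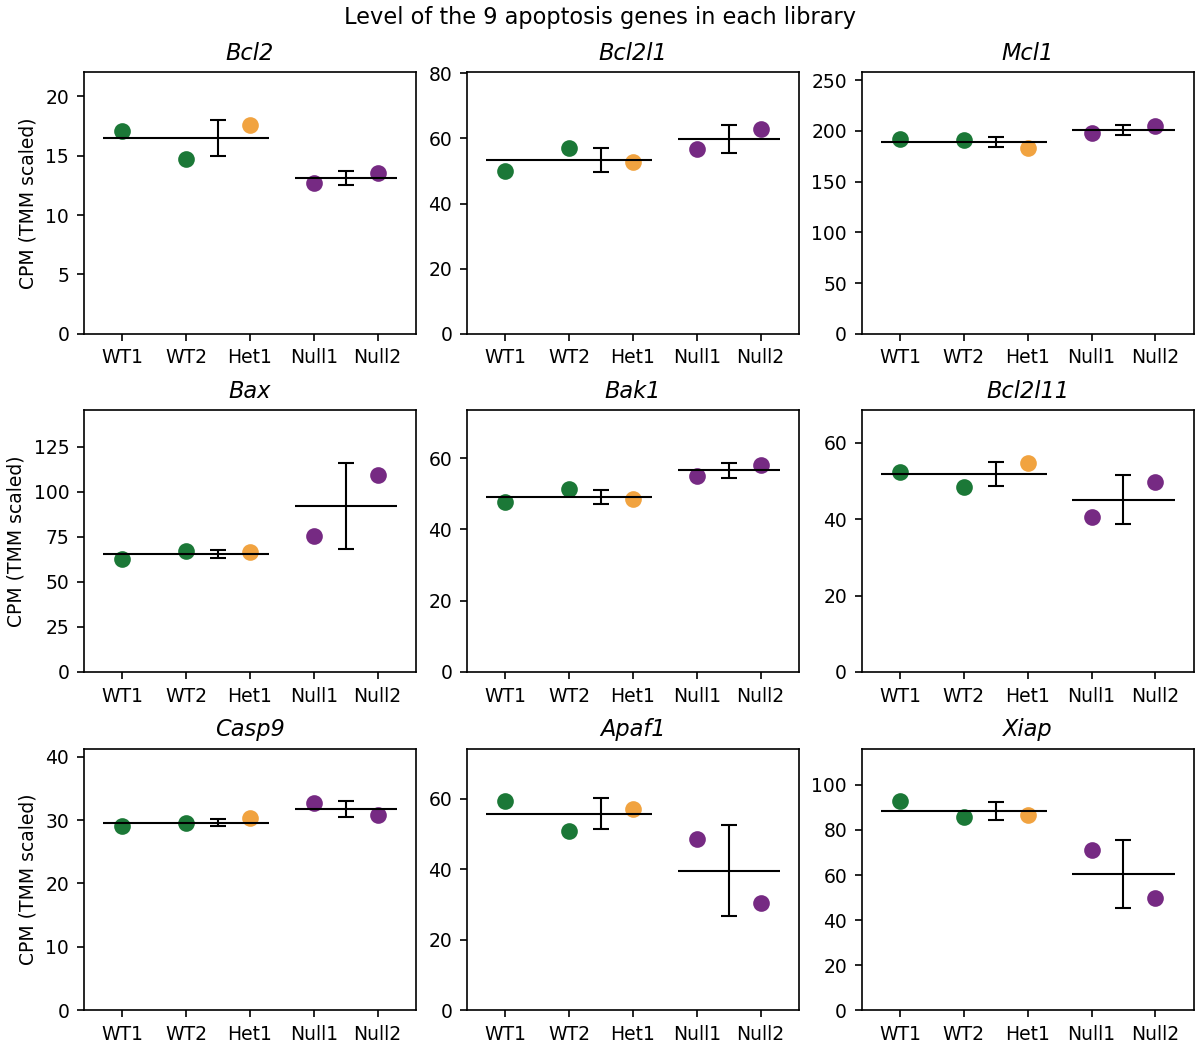
Level of each member in CPM (reads of a gene scaled to a common library size, y axis, from 0) in the 5 libraries (x axis: WT, wild type; Het, heterozygote; Null, EpoR-null). Lines are the means of the 3 controls and of the 2 EpoR-null libraries, and bars are 1 SD; Xiap, Apaf1 and Bax show the largest differences, with EpoR-null replicate 2 farthest from the controls.

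Epor, the gene of the receptor itself (chromosome 9, 21958897 to 21963506, minus strand, GRCm38), was set beside the genotype labels. It had 57 and 68 reads in wild type replicates 1 and 2, 11 in the library labelled heterozygote, and 7 and 19 in EpoR-null replicates 1 and 2. In CPM these were 2.35, 1.62, 0.475, 0.353 and 0.668, so the library labelled heterozygote fell between the EpoR-null libraries and below both wild type libraries. The exact Poisson 95% interval of that library, 0.237 to 0.850 CPM, overlapped those of the EpoR-null libraries (0.142 to 0.728 and 0.402 to 1.04 CPM) and not those of wild type (lower bounds 1.78 and 1.26 CPM). The fitted log2 fold change of Epor was -1.51 (standard error 0.76, p = 0.0603, FDR 0.280, exact test of edgeR) and of -1.91 (FDR 0.0528) without the library labelled heterozygote. Whether the remaining reads came from a part of the gene outside the deletion was not tested. The library labelled heterozygote was also low in blood and endothelial markers, as given below. Its Epor level therefore cannot tell a difference of genotype from one of cell content, and its label was kept.

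Depth ranged from 19316126 to 41169218 reads counted on genes, so that 3 reads were worth 0.0729 to 0.155 CPM. No 2 libraries agreed within sampling noise. All libraries expressed neural progenitor markers (Sox1, Sox2, Sox3, Nes, Pax6, Pax3, Msi1 and Hes5), with summed levels of 1677 to 1906 CPM in controls and 1440 to 1672 CPM in EpoR-null neural tubes, and 1 of the 8, Msi1, was called, lower in EpoR-null. The library labelled heterozygote stood apart in cells that surround the neural tube. Its summed erythroid and blood markers were 44.1 CPM (wild type 602.8 and 1091, EpoR-null 964.5 and 1692), with Hba-a1 at 0 in all 5 libraries, and 7 of 8 were lowest in it. Its 7 endothelial markers summed to 12.5 CPM (wild type 187.7 and 294.1, EpoR-null 131.3 and 249.7) and each was lowest in it. Summed newborn neuron markers were 1008 CPM in EpoR-null replicate 1 and 249.1 CPM in EpoR-null replicate 2, on either side of the controls (330.9 to 537.1 CPM). Summed markers of somites, neural crest and of surface ectoderm and endoderm were also lowest in the library labelled heterozygote. The part of these differences in the members' values was not tested.

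Among the inhibitors of BAX and BAK, Mcl1, which encodes a short-lived protein that progenitor cells need for survival, was the most evenly expressed member across the 5 libraries. Mcl1 (chromosome 3, 95658788 to 95663176, plus strand) had 192.2, 191.0 and 183.2 CPM in wild type replicates 1 and 2 and the library labelled heterozygote, and 197.7 and 204.8 CPM in EpoR-null replicates 1 and 2. Both EpoR-null libraries lay above all controls, by a margin of a few percent (log2 fold change 0.09, standard error 0.13, FDR 0.745). The 95% interval ran from -0.16 to 0.35.

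Bcl2l1 (chromosome 2, 152780668 to 152831728, minus strand), the STAT5 target gene in erythroid cells, had 50.1, 57.2 and 52.8 CPM in the controls in the same order, and 56.7 and 62.9 CPM in EpoR-null neural tubes. Wild type replicate 2 lay above EpoR-null replicate 1, so the groups overlapped. Its log2 fold change was 0.16 (standard error 0.16, FDR 0.6001). The 95% interval of this fit, which takes no account of transcript length, ran from -0.14 to 0.47. With the offsets for length and GC content described below, the log2 fold change was -0.05 in the likelihood-ratio test.

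Bcl2 (chromosome 1, 106538178 to 106714274, minus strand), the founding member of the family, had 17.0, 14.7 and 17.6 CPM in controls, and 12.7 and 13.5 CPM in EpoR-null neural tubes. All controls lay above both EpoR-null libraries, but wild type replicate 2 was only slightly above EpoR-null replicate 2. The log2 fold change was -0.33 (standard error 0.24, FDR 0.479), with a 95% interval from -0.79 to 0.14. Within a replicate number, the difference in log2(CPM + 0.5) was -0.43 for replicate 1, against the mean of the 2 controls with that number, and -0.12 for replicate 2.

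Of the pore-forming effectors, Bax (chromosome 7, 45461697 to 45466898, minus strand) had 62.7, 67.3 and 66.4 CPM in controls and 75.4 and 109.2 CPM in EpoR-null neural tubes. The controls lay close together, and EpoR-null replicate 2 was far above both them and EpoR-null replicate 1. The control mean was 65.4 ± 2.44 CPM (SD, n = 3), against 92.3 ± 23.8 CPM (SD, n = 2). By the exact test of edgeR, the log2 fold change of Bax came to 0.50 (standard error 0.20, p = 0.0112, FDR 0.104), with an interval from 0.11 to 0.88. It was 0.20 (FDR 0.337) without EpoR-null replicate 2, and without EpoR-null replicate 1 it was 0.74 (FDR 1.29e-08).

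Bak1 (chromosome 17, 27019810 to 27029009, minus strand), whose product can stand in for BAX, had 47.7, 51.2 and 48.4 CPM in controls and 55.0 and 58.1 CPM in EpoR-null neural tubes. Both EpoR-null libraries were above all controls and close to each other. Its log2 fold change was 0.20 (standard error 0.15, FDR 0.465, interval -0.08 to 0.49). Bok, the third effector gene, was named after its values were seen and had 15.7, 19.7 and 15.3 CPM in controls and 15.5 and 33.4 CPM in EpoR-null neural tubes. Only EpoR-null replicate 2 stood above the controls for Bok (log2 fold change 0.53, FDR 0.455).

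Bcl2l11 (chromosome 2, 128126038 to 128162547, plus strand), which encodes the BH3-only protein BIM, had 52.3, 48.5 and 54.8 CPM in controls and 40.5 and 49.7 CPM in EpoR-null neural tubes. EpoR-null replicate 1 was below every control, whereas EpoR-null replicate 2 lay among them. Within replicate numbers the log2 differences were -0.40 for replicate 1 and 0.03 for replicate 2, so only replicate 1 stood apart from its controls. Its log2 fold change was -0.20 (standard error 0.17, FDR 0.570, interval -0.54 to 0.14), and it was -0.36 (FDR 0.124) without EpoR-null replicate 2 and -0.06 (FDR 0.819) without EpoR-null replicate 1.

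Casp9 (chromosome 4, 141793612 to 141815976, plus strand), the initiator caspase of the pathway, had 29.1, 29.5 and 30.3 CPM in controls and 32.6 and 30.8 CPM in EpoR-null neural tubes. All 5 values lay close together, with the EpoR-null libraries at the upper end. The log2 fold change was 0.10 (standard error 0.17, FDR 0.793, interval -0.23 to 0.43).

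Apaf1 (chromosome 10, 90989311 to 91082770, minus strand), the scaffold of the apoptosome, had 59.4, 50.9 and 57.1 CPM in controls and 48.7 and 30.4 CPM in EpoR-null neural tubes. EpoR-null replicate 1 was just below the lowest control, and EpoR-null replicate 2 was far below it. The control mean was 55.8 ± 4.402 CPM (SD, n = 3), against 39.5 ± 12.9 CPM (SD, n = 2). The exact test gave Apaf1 a log2 fold change of -0.50 (standard error 0.25, p = 0.0476, FDR 0.246, interval -0.98 to -0.02). Without EpoR-null replicate 2 it was -0.20 (FDR 0.499) and without EpoR-null replicate 1 it was -0.87 (FDR 5.15e-06).

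Xiap (chromosome X, 42059679 to 42109656, plus strand), the caspase inhibitor, had 92.9, 85.7 and 86.8 CPM in controls and 71.1 and 49.9 CPM in EpoR-null neural tubes. Both EpoR-null libraries lay clearly below the controls, which lay close together. The controls averaged 88.4 ± 3.90 CPM (SD, n = 3), against 60.5 ± 15.01 CPM (SD, n = 2). In the exact test Xiap had -0.55 as its log2 fold change (standard error 0.19, p = 0.00541, FDR 0.0659, interval -0.93 to -0.17), the closest of the members to the threshold. It was -0.32 (FDR 0.0773) without EpoR-null replicate 2 and -0.82 (FDR 4.81e-09) without EpoR-null replicate 1.

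EpoR-null replicate 2 thus decided how far Bax, Apaf1 and Xiap stood from the controls. With EpoR-null replicate 1 left out, a fit in which the single remaining EpoR-null library was assumed to vary like the controls, these 3 of the 9 members were called, and so were 30.0% of all 12576 genes tested. With EpoR-null replicate 2 left out, the log2 fold changes were 0.20 for Bax, -0.20 for Apaf1 and -0.32 for Xiap. The level in the library labelled heterozygote was within the wild type range for Bcl2l1, Bax, Bak1, Apaf1 and Xiap. For the other 4 members it was beyond that range by at most 4.64%. Without that library, 0 of the 9 members were called, beside 253 of all genes tested. The log2 fold changes were then 0.51 for Bax, -0.48 for Apaf1 and -0.56 for Xiap (FDR 0.395, 0.576 and 0.304).

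The promoters of Bax, Apaf1 and Xiap are shown because these members lay farthest from the controls, Bax on the upper and the other two on the lower side. Each is 300 bases long, from 250 bases before to 50 bases after a RefSeq transcription start, and is written 5′ to 3′ on the strand of the gene. The positions on GRCm38.p6 are chr7:45466849-45467148 (minus strand) for Bax, chr10:91082694-91082993 (minus strand) for Apaf1 and chrX:42068148-42068447 (plus strand) for Xiap, 1 of 3 windows listed for it and not the most upstream. Capitals mark GC boxes, GGGCGG or CCGCCC.
Bax: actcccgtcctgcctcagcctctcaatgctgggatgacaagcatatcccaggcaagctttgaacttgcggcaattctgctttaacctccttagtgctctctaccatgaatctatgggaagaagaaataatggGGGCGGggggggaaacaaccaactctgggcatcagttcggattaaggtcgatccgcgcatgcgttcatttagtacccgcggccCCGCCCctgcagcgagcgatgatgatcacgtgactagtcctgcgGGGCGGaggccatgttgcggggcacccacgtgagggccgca
Apaf1: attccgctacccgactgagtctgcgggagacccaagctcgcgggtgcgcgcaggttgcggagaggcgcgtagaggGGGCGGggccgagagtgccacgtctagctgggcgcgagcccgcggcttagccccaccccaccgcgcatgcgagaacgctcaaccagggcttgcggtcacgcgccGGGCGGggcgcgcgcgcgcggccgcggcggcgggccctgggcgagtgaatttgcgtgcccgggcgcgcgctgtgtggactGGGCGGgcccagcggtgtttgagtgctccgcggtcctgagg
Xiap: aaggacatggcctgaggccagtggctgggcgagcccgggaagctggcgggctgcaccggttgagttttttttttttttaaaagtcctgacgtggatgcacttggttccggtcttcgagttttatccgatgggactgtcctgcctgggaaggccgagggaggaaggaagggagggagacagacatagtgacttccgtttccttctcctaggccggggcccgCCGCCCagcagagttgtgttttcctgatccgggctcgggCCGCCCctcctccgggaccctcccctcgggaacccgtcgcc
The Bax and Apaf1 windows each hold 3 GC boxes and the Xiap window holds 2, so a higher and a lower member were alike in this respect. Across the 14 RefSeq promoters of the 9 members, 9 promoters of 7 genes hold a GC box on either strand, and of all 32851 promoters of the same length 35.7% do. The letters TTCNNNGAA, the core of a STAT5 site, which reads the same on both strands, occur in 0 of the 14 windows, including the 3 windows of Bcl2l1, and in 8.30% of all promoters. Both motifs were chosen after the values had been seen, a match is a description of the sequence, and nothing about the binding of a factor follows from a window without one.

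The order of the members' fold changes followed the length of their transcripts. Taking the longest annotated transcript, Bax is the shortest member at 1100 bases, followed by Bak1 at 2387, Bcl2l1 at 2568, Mcl1 at 3418, Casp9 at 3897, Bcl2l11 at 5036, Apaf1 at 6577, Xiap at 6834 and Bcl2 at 7191 bases. The log2 fold changes went from 0.50 in the shortest to between -0.55 and -0.33 in the 3 longest. As a description across genes, which share libraries and are not independent, Spearman's rho between length and log2 fold change was -0.93 over the 9 members and -0.63 over 12584 genes tested that have a length.

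**Figure D2:**
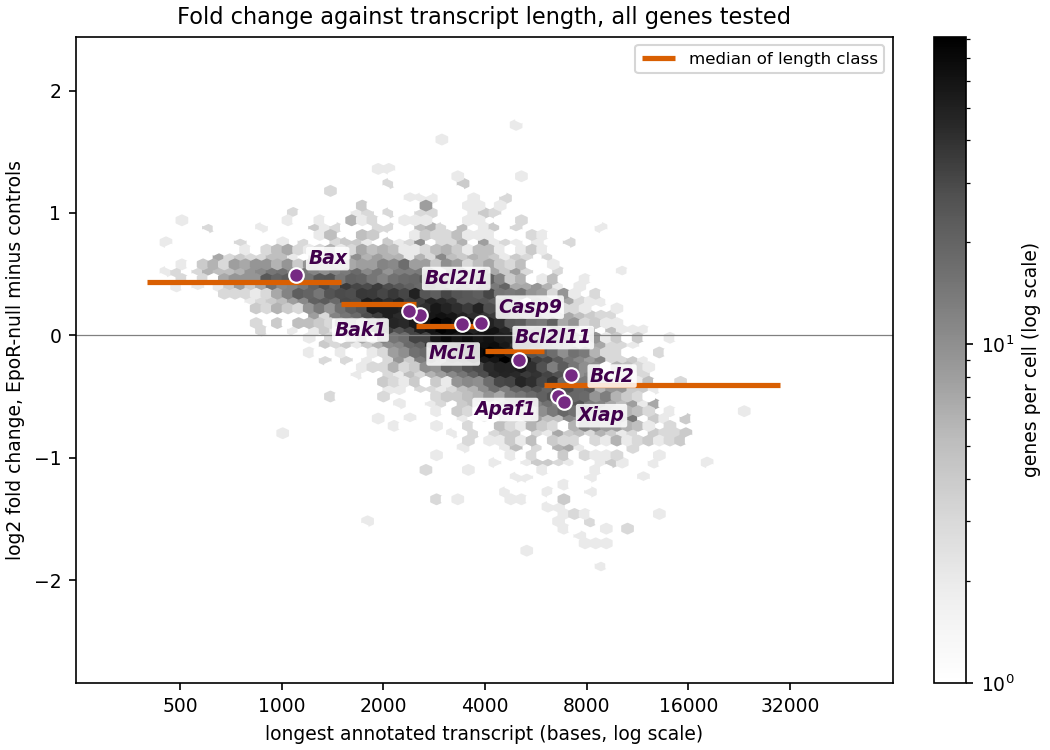
Log2 fold change, EpoR-null minus controls (y axis), against the longest annotated transcript in bases (x axis, log scale); grey cells count the genes tested, purple points are the 9 members and orange lines are medians of 5 length classes. The members lie along the band of all genes, with Bax at the short and Apaf1, Xiap and Bcl2 at the long end.

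The same pattern ran through the whole table. The median log2 fold change was 0.43 in 1283 genes with transcripts under 1500 bases, the class of Bax. It was 0.26 in 2322 genes of 1500 to under 2500 bases, the class of Bak1, and 0.07 in 3923 genes of 2500 to under 4000 bases, the class of Bcl2l1, Mcl1 and Casp9. It was -0.13 in 3108 genes of 4000 to under 6000 bases, the class of Bcl2l11, and -0.41 in 1948 genes of 6000 bases and over, the class of Bcl2, Apaf1 and Xiap. Calls followed suit, since 25.9% of the longest class were called lower and 0.103% higher, against 0.390% lower and 12% higher in the shortest class. The medians of the shortest and the longest class, relative to the control mean, were 0.26 and -0.28 in EpoR-null replicate 1 and 0.56 and -0.59 in EpoR-null replicate 2. In the 3 control libraries, which themselves make up that mean, they stayed between -0.07 and 0.04. Spearman's rho between length and level relative to the control mean was 0.20 in wild type replicate 1 and -0.18 in wild type replicate 2. It was 0.06 in the library labelled heterozygote, and -0.36 and -0.66 in EpoR-null replicates 1 and 2. The cause of this trend was not tested.

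A trend on transcript length and GC content was fitted to all genes in each library, and the difference between EpoR-null and controls that it gives for each member was set beside the measured one. For Bcl2 the trend gave -0.38 and the data -0.33, for Bcl2l1 0.21 and 0.16, and for Bak1 0.24 and 0.20. These 3 members differed in the opposite direction once the trend had been taken out as an offset, with log2 fold changes of 0.07, -0.05 and -0.03. For Bax the trend gave 0.37 of 0.50, for Apaf1 -0.35 of -0.50 and for Xiap -0.38 of -0.55. With the offsets, the log2 fold changes of Bax, Apaf1 and Xiap were 0.11, -0.18 and -0.19, and those of Mcl1, Casp9 and Bcl2l11 were 0.05, 0.05 and -0.02. No member was called with them by the likelihood-ratio test of edgeR (FDR 0.864 to 0.998), in which 185 of all genes were called. The offsets also remove any difference between genotypes that itself goes with length.

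**Figure D3:**
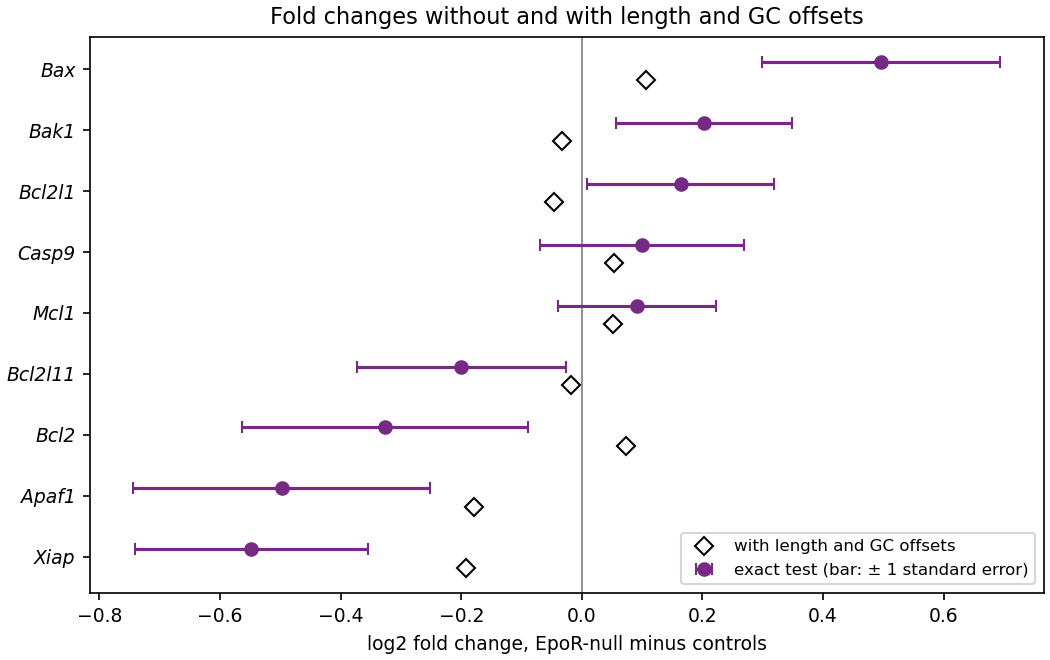
Log2 fold change, EpoR-null minus controls (x axis), of each member (y axis) in the exact test (purple points, bars of 1 standard error) and after offsets for length and GC content (open diamonds). All open diamonds lie between -0.19 and 0.11, nearer to 0 than the points of Bax, Bcl2, Apaf1 and Xiap.

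Ratios between members within a library do not depend on its depth. The ratio of Bcl2 to Bax reads, as log2, was -1.88 and -2.19 in wild type replicates 1 and 2, -1.91 in the library labelled heterozygote, and -2.57 and -3.01 in EpoR-null replicates 1 and 2. Both EpoR-null libraries were below all controls, and the means differed by -0.80. The log2 ratio of Bcl2l1 to Bax was -0.32, -0.24 and -0.33 in controls and -0.41 and -0.79 in EpoR-null neural tubes. Here EpoR-null replicate 1 was close to the controls, and the means differed by -0.31.

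The log2 ratio of Xiap to Casp9, inhibitor to target, was 1.68, 1.54 and 1.52 in controls and 1.12 and 0.69 in EpoR-null neural tubes, a difference of -0.67. Mcl1 to Bak1 ranged from 1.90 to 2.01 in controls and was 1.85 and 1.82 in EpoR-null neural tubes, a difference of -0.11. Mcl1 to Bcl2l11 went the other way, from 1.74 to 1.98 in controls and 2.29 and 2.04 in EpoR-null neural tubes, a difference of 0.30. Of the 5 ratios of a survival gene to its partner, 4 were therefore lower and 1 was higher in both EpoR-null libraries than in all controls. The ratios carry no test, and the share of all gene pairs that separate in this way is not given here. Among single genes tested, both EpoR-null libraries lay below all controls for 22.1% and above all controls for 21.2%. Bax and Mcl1 each enter more than 1 pair, so the pairs are not independent. In each of the 4 lower ratios the survival gene has the longer transcript of the pair, and in the higher one, Mcl1 to Bcl2l11, it has the shorter.

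**Figure D4:**
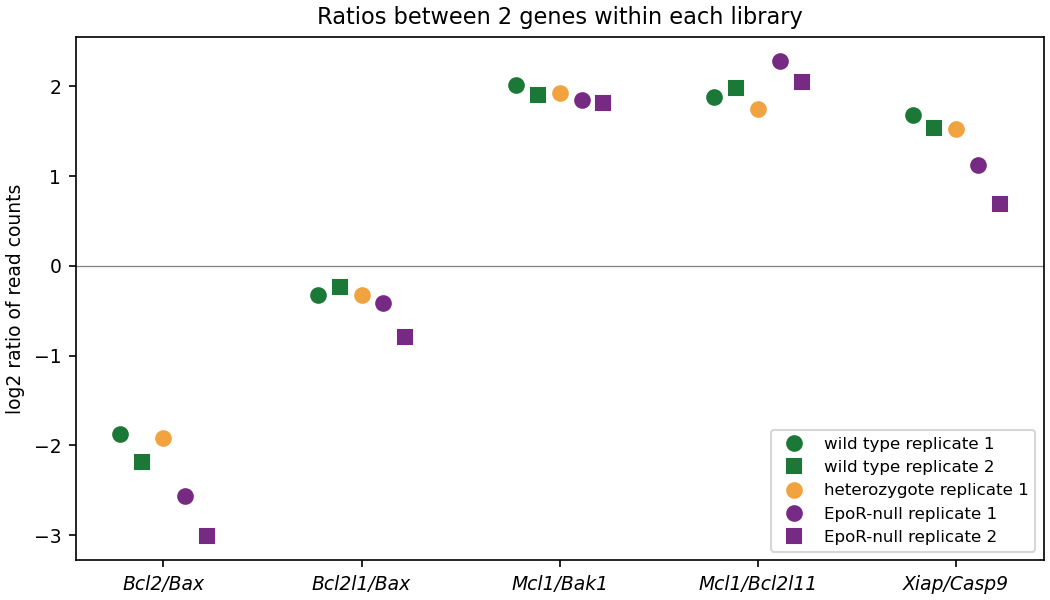
Log2 ratio of read counts of 2 members (y axis) within each of the 5 libraries (green, wild type; orange, the library labelled heterozygote; purple, EpoR-null; circles, replicate 1; squares, replicate 2). The EpoR-null points lie below the controls for 4 pairs and above them for Mcl1/Bcl2l11.

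Per length of the annotated exons (RPKM, CPM per kilobase of exon), Mcl1 was expressed at 55.2 ± 1.43 RPKM (SD, n = 3) in controls and Bax at 41.5 ± 1.55. Bak1 followed at 20.4 ± 0.776, Bcl2l1 at 11.6 ± 0.776 and Xiap at 9.34 ± 0.412. Bcl2l11, Apaf1 and Casp9 had similar levels of 6.46 ± 0.391, 6.18 ± 0.488 and 5.70 ± 0.119 RPKM, and Bcl2 was lowest at 1.799 ± 0.166. Over all 5 libraries the ranges of neighbours in this order overlapped for Mcl1 and Bax, for Xiap and Bcl2l11, for Bcl2l11 and Apaf1, and for Apaf1 and Casp9. Mcl1 was therefore the leading survival gene by transcript level and Bcl2 the least abundant member in every library. Divided by the longest transcript in place of all exons, Bax was first with 59.5 RPKM and Bcl2l1, at 20.8 RPKM, passed Bak1 at 20.6. In EpoR-null neural tubes Mcl1 had 58.9 ± 1.47 and Bax 58.6 ± 15.1 RPKM (SD, n = 2).

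The wider pathway was described by lists of 68 genes, of which 18 did not pass the filter on low counts. Those 18 included Fas and its ligand Fasl, the inflammatory caspases Casp1 and Casp4, and the Bcl2a1 and Naip genes, whose near-identical copies make their counts uncertain. Of the 50 genes tested, 1 fell (Birc6) and 0 rose, beside the 5.49% and 1.81% of all genes. At an unadjusted p below 0.05 there were 4 lower genes (Birc6, Xiap, Apaf1 and Bcl2l13) and 5 higher ones (Bax, Bad, Diablo, Birc5 and Sept4), named after their values were seen, beside 11.9% and 7.88% of all genes. DESeq2 called 5 genes (Birc6, Xiap and Bcl2l13 lower, Bad and Birc5 higher), beside its 16.6% of all genes, and the quasi-likelihood F-test of edgeR called 0. The median log2 fold change of the 50 was 0.08, and that of all genes was 0.06.

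Birc6, a very large inhibitor of apoptosis protein that also carries a ubiquitin-conjugating domain, had 142.4, 117.2 and 149.5 CPM in controls and 84.2 and 68.5 CPM in EpoR-null neural tubes. Both EpoR-null libraries were well below all controls. Birc6 fell by 0.84 on the log2 scale (standard error 0.18, FDR 0.000557), and its log2 fold change was -0.77 without the library labelled heterozygote (FDR 0.0290). It was no longer called without wild type replicate 1 (-0.81, FDR 0.0600) or with the length and GC offsets (-0.31, FDR 0.433). The quasi-likelihood F-test did not call it without the replicate block (FDR 0.0710) and called it with the block (FDR 0.0410). The longest transcript of Birc6, at 15768 bases, is far longer than those of the 9 members. The trend fitted on length and GC content together gave -0.52 for Birc6, beside its measured log2 fold change of -0.84. Among 5 inhibitor of apoptosis genes tested, 1 was called and the median was -0.04, since Birc2, Birc3 and Birc5 did not share the lower level of Xiap and Birc6.

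**Figure D5:**
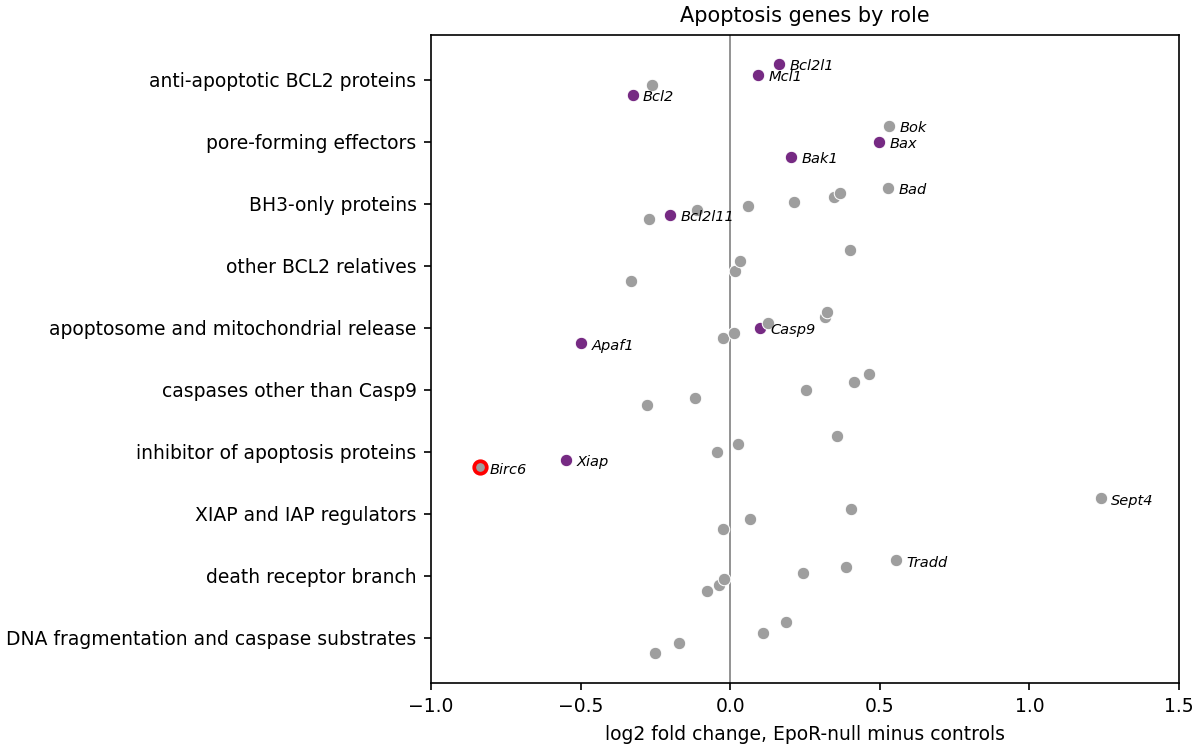
Log2 fold change, EpoR-null minus controls (x axis), of the 50 pathway genes tested, by role (y axis); purple points are the 9 members, grey points other genes, and the red ring marks Birc6, the 1 gene with FDR < 0.05. Names are given for the members and for genes beyond 0.5 in either direction.

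The 3 effector genes had the highest median of the lists, 0.50, with 0 of 3 called. They also had the shortest median transcript of the lists, 1468 bases. Over all genes with transcripts under 1500 bases the median log2 fold change was 0.43. The median of 8 BH3-only genes was 0.14, with 0 called. Bmf, which links the cytoskeleton to BCL2 proteins, was level with 44.7, 45.1 and 46.5 CPM in controls and 44.5 and 50.1 CPM in EpoR-null neural tubes (log2 fold change 0.06, FDR 0.884). Bad, named after its values were seen because its groups were tight and apart, had 11.2, 10.8 and 11.3 CPM in controls and 15.8 and 16.1 CPM in EpoR-null neural tubes (log2 fold change 0.53, FDR 0.161). Both EpoR-null libraries lay above all controls for 21.2% of all genes tested. The longest transcript of Bad has 1533 bases, and the median of that length class over all genes was 0.26.

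The 4 anti-apoptotic genes tested had a median of -0.08 and the 4 other BCL2 relatives one of 0.02, with 0 called in both. Bcl2l13, a mitochondrial BCL2 relative, had 141.5, 135.1 and 138.1 CPM in controls and 103.5 and 116.4 CPM in EpoR-null neural tubes. Its groups did not overlap (log2 fold change -0.33, FDR 0.126). Both EpoR-null libraries lay below all controls for 22.1% of all genes tested. The longest transcript of Bcl2l13 has 6925 bases, and the median of that length class over all genes was -0.41. Bnip3l, which takes part in the removal of mitochondria, had 209.7, 181.2 and 198.6 CPM in controls and 207.9 and 189.2 CPM in EpoR-null neural tubes, with full overlap (log2 fold change 0.02, FDR 0.973).

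Of the 7 genes of the apoptosome and of mitochondrial release, 0 were called and the median was 0.10. Cycs, the cytochrome c gene, which has processed copies in the genome that can share reads with it, had 237.9, 230.2 and 254.2 CPM in controls and 254.7 and 344.6 CPM in EpoR-null neural tubes (log2 fold change 0.32, FDR 0.333). Diablo, whose product frees caspases from XIAP, had 69.8, 65.8 and 71.0 CPM in controls and 78.3 and 93.7 CPM in EpoR-null neural tubes (log2 fold change 0.32, FDR 0.190). Both genes were highest in EpoR-null replicate 2, as Bax was. Among 5 other caspases tested (median 0.25, 0 called), Casp2 had 113.7, 101.5 and 109.4 CPM in controls and 105.7 and 93.9 CPM in EpoR-null neural tubes (log2 fold change -0.12, FDR 0.699).

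The remaining lists held no called gene. The 4 regulators of XIAP and other inhibitors had a median of 0.24, with Siah1a, a ubiquitin ligase gene, at 0.07 (FDR 0.891) and its close copy Siah1b at -0.02 (FDR 0.974). Sept4, named after its values were seen as the gene with the highest fold change, had only 14 to 40 reads in controls and 50 and 51 reads in EpoR-null neural tubes (log2 fold change 1.24, FDR 0.0790). The 6 death receptor genes tested had a median of 0.11, with Cflar, an inhibitor of caspase-8, at -0.04 (FDR 0.962) and Fadd, the receptor adaptor, at 0.24 (FDR 0.724). The 4 genes of DNA fragmentation and caspase substrates had a median of -0.03, with Parp1 at -0.25 (FDR 0.348) and Acin1 at -0.17 (FDR 0.512).

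For each member, the pathway gene with the most similar profile over the 5 libraries was the one with the smallest root mean square difference of centred log2 CPM among the other 49 genes tested. Apaf1 and Xiap were nearest to each other, at 0.0736, where the median over all candidates was 0.450 for Apaf1. Bax was nearest to Bcl2l12, at 0.0820, and Bcl2l1 to Bak1, at 0.0408. Bcl2 and Bcl2l11 were both nearest to Bcl2l13, at 0.0762 and 0.0865. Mcl1 was nearest to Aifm1, the gene of apoptosis-inducing factor, at 0.0315, Casp9 to Mcl1, at 0.0597, and Bak1 to Dffa, the inhibitor of the caspase-activated DNase, at 0.0365. Casp9 deviated from its own mean over the libraries by 0.0586, less than its distance from Mcl1. That match therefore shows only that both genes were nearly level. The profiles rest on 5 libraries that share depth and length trends.

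Several members overlap other genes in the annotation, and the strand setting of the counting is not given in the sources used here. Bcl2, Bak1 and Casp9 overlap genes on the opposite strand and Bax a gene on its own strand, so reads of these pairs may have been left out or shared.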

How the data were processed

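RNA-seq was analysed from the neural tubes of 5 mouse samples, grouped by genotype from the sample labels. The deposited values are raw read counts per gene symbol, 1 table per sample, which the authors made without normalization. The submitters' processing notes name Trimmomatic 0.32, TopHat2 2.1.0, HTSeq 0.6.1 and the build mm9, while the methods name a human build. The annotation and the strand setting are not given in the sources used here. The summary lines of HTSeq held 20.6% to 23.0% of the reads and were left out.

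The software was R 4.3.3 and edgeR 4.0.16. As in the study, TMM normalization and the exact test set EpoR-null against the 3 controls, with tagwise dispersions (common biological coefficient of variation 0.232) and Benjamini-Hochberg adjustment (FDR) over the 12703 genes with CPM above 1 in at least 2 samples. A gene was called at FDR < 0.05. CPM and RPKM were computed from the counts and TMM-scaled library sizes. Standard errors and 95% intervals came from the negative binomial information. Only tests for differential expression were tried on simulated counts. These had the same dispersion for all genes, and any simulated length trend was equal in both EpoR-null libraries. Ratios, RPKM, profiles and motifs were not simulated. No source states that samples came from separate litters, so p-values measure the spread between these samples, and counting intervals cover counting error only.

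Gene positions, exon and transcript lengths and GC content came from GENCODE M21 (GRCm38), matched by symbol, with a length for 99.06% of tested genes and all 50 pathway genes tested. Coordinates of the authors' build were not used. Promoters came from RefSeq (GRCm38.p6), where all 9 members matched. Protein sequences were not used here.

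Alternatives were the quasi-likelihood F-test without and with a replicate block, DESeq2 1.42.0, scaling by RLE or by library size alone, the table unfiltered or limited to genes with 10 or more reads in all samples, the study's joint threshold (an exact-test p below 0.001 as well as FDR < 0.05), each sample left out, offsets for a loess trend (span 0.5) on the length and GC content of transcripts, 0.5 reads added to ratios and the longest transcript for RPKM. The heterozygote as its own group was added after its Epor and marker counts had been seen. Members and lists were chosen with earlier results of these data known. Named genes were the 9 members, Epor, each called pathway gene or otherwise the 2 most abundant genes of a list, and the gene nearest in profile to each member, of which 1 pathway gene is not reported here.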

Additional observations from a re-analysis of the deposited data

How the results depend on the processing

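The number of members called stayed at 0 except with DESeq2, which called 1 (Xiap, -0.55, FDR 0.0299), and ranged from 0 to 3 with 1 library left out. The 3 calls came without EpoR-null replicate 1, and over the libraries left out the log2 fold change ranged from -0.825 to -0.316 for Xiap, from -0.874 to -0.196 for Apaf1 and from 0.202 to 0.737 for Bax. With a replicate block for the number in the labels, the quasi-likelihood F-test called 0 members (lowest FDR 0.0809), 1 pathway gene (Birc6, FDR 0.0410) and 695 of all genes (581 lower, 114 higher). The labels do not say what a number shares, and the correlation across genes of the replicate differences in wild type and EpoR-null was 0.427.

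The 1 pathway gene called became 0 with the quasi-likelihood F-test without the block, with each of the 3 fits with length and GC offsets, and with the heterozygote as its own group. It became 5 with DESeq2, 2 with library size only (Bcl2l13 and Birc6) and 2 with at least 10 reads in every sample (Birc6 and Sept4), and ranged from 0 (without wild type replicate 1) to 11 (without EpoR-null replicate 1), with 3 without EpoR-null replicate 2. The 928 genes called overall became 0 with the quasi-likelihood F-test without the block (lowest FDR 0.0590), 0 with the heterozygote as its own group, 1737 with DESeq2, 606 by the exact test at the stricter joint threshold of the study, and 185 (159 lower, 26 higher) by the likelihood-ratio test or 0 by the quasi-likelihood F-test, without and with the block, when offsets were used. With 1 library left out the number ranged from 115 (without wild type replicate 1) to 3778 (without EpoR-null replicate 1), with 313 without wild type replicate 2, 253 without the library labelled heterozygote and 1654 without EpoR-null replicate 2.

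Of the members, 3 changed direction with the offsets, in the likelihood-ratio test, the quasi-likelihood F-test and the latter with the block. These were Bcl2 (0.0732, 0.0724 and 0.0456), Bcl2l1 (-0.0458, -0.0459 and -0.0488) and Bak1 (-0.0333, -0.0333 and -0.0221). The cause was not tested. Of the 108 pairs of a member and another setting, 98 kept direction and call, and of 45 pairs with 1 library left out, 42 did. Per length of the longest transcript, control levels in RPKM were 2.29 (Bcl2), 20.8 (Bcl2l1), 59.5 (Bax), 10.3 (Bcl2l11), 7.60 (Casp9), 8.48 (Apaf1) and 12.9 (Xiap), because fewer bases enter the length. With 2 EpoR-null libraries, members' standard errors of 0.13 to 0.25 on the log2 scale limit what could be called.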
